A study of Mus musculus with 9 samples.

Results

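Imprinted genes active in the developing brain were followed across the embryonic mouse hypothalamus. The 10 genes, taken by symbol from the deposited expression table, were Ndn, Magel2 and Snrpn of the Prader-Willi region, Peg3, Peg10, Dlk1, Meg3, Rian, H19 and Plagl1. They were 10 of the 38195 symbols in the table, and all 10 were among the 14004 genes with at least 1 FPKM (fragments per kilobase of transcript, scaled to library size) in at least 3 of the 9 libraries. In these data Plagl1 and H19 were higher in the ventricular zone and in the medial mantle zone than in the lateral mantle zone. Ndn and Snrpn were lower in the ventricular zone than in the lateral one, and the other 6 genes did not pass the test in any comparison of zones.

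An imprinted gene is transcribed mainly from the allele of a single parent, as set by DNA methylation laid down in the germ line, and many such genes lie in clusters that share a control region. Ndn, Magel2, Snrpn, Peg3, Peg10, Dlk1 and Plagl1 are known to be transcribed from the paternal allele, and Meg3, Rian and H19 from the maternal allele. In humans, loss of the paternal Prader-Willi region causes a disorder with overeating and hormone deficits that is traced to the hypothalamus. FPKM values here sum the RNA of both alleles, so they give the level of each gene's RNA and not its parental origin.

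The tissue was hypothalamus from E12.5 embryos of the outbred CD-1 strain. 3 zones, ventricular, medial mantle and lateral mantle, were cut apart from slices, with 3 libraries of each zone numbered 1 to 3, and no library carries a label for a mutation or a treatment. Progenitors divide at the ventricle, and their neuronal progeny migrate outwards into the mantle. Whether a zone's libraries represent different embryos or pools is not in the labels. The p-values therefore cover the spread between these libraries alone, which may be partly technical.

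The smallest steps of the values implied a depth of 4466836 to 8912509 fragments for 7 libraries. Ventricular replicate 3 had 257040 and medial replicate 3 had 537032, which were 25.1-fold and 12.0-fold below the median library and carried the largest deviations from their zone means. The 13 hypothalamic identity genes checked each reached 1 FPKM in at least 1 library. Of these, Rax and Nkx2-2 were higher in the ventricular and in the medial zone than in the lateral one. Rax, a homeobox gene of hypothalamic progenitors, was listed at 0 in all 3 lateral libraries. It passed the filter only through the other zones, so its calls are no support. Otp, a homeobox gene of neuroendocrine neurons, was lower in the ventricular zone than in the lateral one, a call lost without ventricular replicate 1 or 3 or lateral replicate 1 or 3. For ventricular against medial, 9 of the 13 had an unadjusted limma p under 0.05, as did 1661 of all 14004 tested genes. For ventricular against lateral 6 of the 13 did, beside 5009 of all genes. For medial against lateral 7 of the 13 did, beside 2887 of all genes. Whether regional markers moved between the zones more than other genes was not tested. Of 13 progenitor markers, 12 were higher in the ventricular and in the medial than in the lateral libraries. Of all genes 10.7% and 3.58% were. Among the 12, Rax, Mki67, Sox9 and Slc1a3 stayed below 1 FPKM in each lateral library. They passed the filter only by being high in the other zones, so their calls are no support. Medial minus lateral, the calls of Hes1, Slc1a3 and Nes held in 12, 13 and 14 of 20 alternative settings. That of Mki67 held in 19, and each of these was lost without lateral replicate 2. The ventricular minus lateral call of Slc1a3 held in 14, and every other progenitor call held in each setting. Of 13 neuronal markers 10 were lower in ventricular than in lateral libraries, where 8.93% of all genes were. The 10 became 1 without ventricular replicate 1 or lateral replicate 1 or 2, 2 without lateral replicate 3, and 6 without ventricular replicate 3 or medial replicate 2, while the neuronal sums of the ventricular and lateral libraries did not overlap.

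Promoter windows, from 250 bases before to 50 bases after a start site, were found for 8 of the 10 genes in RefSeq on GRCm38.p6. None was found for Peg10 or for H19, which passed the test, so H19 was not read for motifs. Windows of Ndn and Snrpn are shown because these genes moved in the same direction although their spans lie 2206349 bp apart on chromosome 7, on opposite strands. Capitals mark CGCATGCG, the core of the NRF1 motif, which reads the same on both strands. It was chosen after these promoters had been read.
Ndn, chr7:62348027-62348326, plus strand: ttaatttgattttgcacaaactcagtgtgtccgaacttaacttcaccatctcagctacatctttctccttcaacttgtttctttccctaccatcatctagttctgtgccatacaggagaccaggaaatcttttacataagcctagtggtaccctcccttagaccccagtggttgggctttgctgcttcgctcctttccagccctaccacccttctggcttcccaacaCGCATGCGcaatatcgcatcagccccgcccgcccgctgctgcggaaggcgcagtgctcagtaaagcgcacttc
Snrpn, chr7:60005150-60005449, minus strand: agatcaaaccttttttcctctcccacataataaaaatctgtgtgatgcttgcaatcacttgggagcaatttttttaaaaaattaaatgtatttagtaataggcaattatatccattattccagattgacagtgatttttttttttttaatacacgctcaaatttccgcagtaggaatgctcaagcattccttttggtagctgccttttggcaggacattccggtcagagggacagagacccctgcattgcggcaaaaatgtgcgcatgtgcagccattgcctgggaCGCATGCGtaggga
Snrpn, chr7:60140176-60140475, minus strand: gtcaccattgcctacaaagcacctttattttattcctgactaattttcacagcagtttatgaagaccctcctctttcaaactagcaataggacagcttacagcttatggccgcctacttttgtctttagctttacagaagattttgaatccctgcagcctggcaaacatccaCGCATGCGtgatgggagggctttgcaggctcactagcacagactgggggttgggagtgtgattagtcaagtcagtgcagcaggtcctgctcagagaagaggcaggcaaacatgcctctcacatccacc
The motif began at base 228 of the Ndn window, and at bases 287 and 173 of the Snrpn windows shown. RefSeq gave Snrpn 4 windows, and each held the motif. The windows from 60047929, 60140176 and 60450128 are close copies of each other around and after the motif, so the 4 are not separate occurrences. The window from 60450128 lies outside the Snrpn span given below. Among 27025 genes with a window, 2.07% held the motif in at least 1, and among all 32851 windows 1.87% did. A match in these letters is a description of sequence only.

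Plagl1 encodes a zinc finger transcription factor that binds the GC-rich core GGGGCCCC. Its own promoter window, on chromosome 10, held none of GGGGCCCC, CCATNTT (the YY1 core) or CGCATGCG on either strand, so it is printed without capitals, with that of Peg3, the only window of the 8 genes with GGGGCCCC, in capitals at base 50.
Plagl1, chr10:13090582-13090881, plus strand: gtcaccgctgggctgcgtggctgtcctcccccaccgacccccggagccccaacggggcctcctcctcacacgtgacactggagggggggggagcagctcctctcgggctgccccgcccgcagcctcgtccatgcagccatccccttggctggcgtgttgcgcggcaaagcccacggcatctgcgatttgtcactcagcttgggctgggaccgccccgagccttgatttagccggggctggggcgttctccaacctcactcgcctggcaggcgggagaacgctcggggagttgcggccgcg
Peg3, chr7:6730370-6730669, minus strand: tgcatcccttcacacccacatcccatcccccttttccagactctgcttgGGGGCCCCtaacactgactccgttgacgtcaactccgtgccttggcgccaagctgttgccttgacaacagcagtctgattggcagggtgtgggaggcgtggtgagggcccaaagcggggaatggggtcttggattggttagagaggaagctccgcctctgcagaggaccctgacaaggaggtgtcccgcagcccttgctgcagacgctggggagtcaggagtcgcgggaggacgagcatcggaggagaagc
GGGGCCCC was present in 1.25% of genes with a window and CCATNTT in 18.2%, and among the 8 genes CCATNTT was found in Magel2 alone, at base 1. CCCTC, part of the Ctcf core, was found in the windows of all 8 genes on either strand, and in 67.7% of all genes. No match overlapped one of another motif.

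H19 is a noncoding RNA that is also the precursor of a microRNA pair, shown with the seed, bases 2 to 8, in capitals. The pair lies on chromosome 7, minus strand, and its mature forms were not measured by these libraries.
miR-675-5p, chr7:142577112-142577133: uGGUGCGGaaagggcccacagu
miR-675-3p, chr7:142577078-142577099: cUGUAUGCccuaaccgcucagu
Meg3 and Rian likewise hold 3 and 6 mature microRNAs on their own strand, and no seed was shared within a host.

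Because FPKM is a value per length, levels can be set side by side. Meg3, Rian, Dlk1 and Ndn held ranks 1 to 4 among the 10 genes in each of the 9 libraries. Together they made up 85.8% to 89.8% of the summed FPKM of the 10 genes. H19 had the lowest level of the 10 in 8 libraries and was lowest but for Peg10, listed at 0, in medial mantle zone replicate 1. The summed FPKM of the 10 genes was 4006, 4120.3 and 2702 in the ventricular libraries, 5064, 4685 and 4047 in the medial libraries and 4991, 3776 and 4876 in the lateral libraries. These sums overlapped between each pair of zones, and the lowest was that of the shallowest library.

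**Figure D1:**
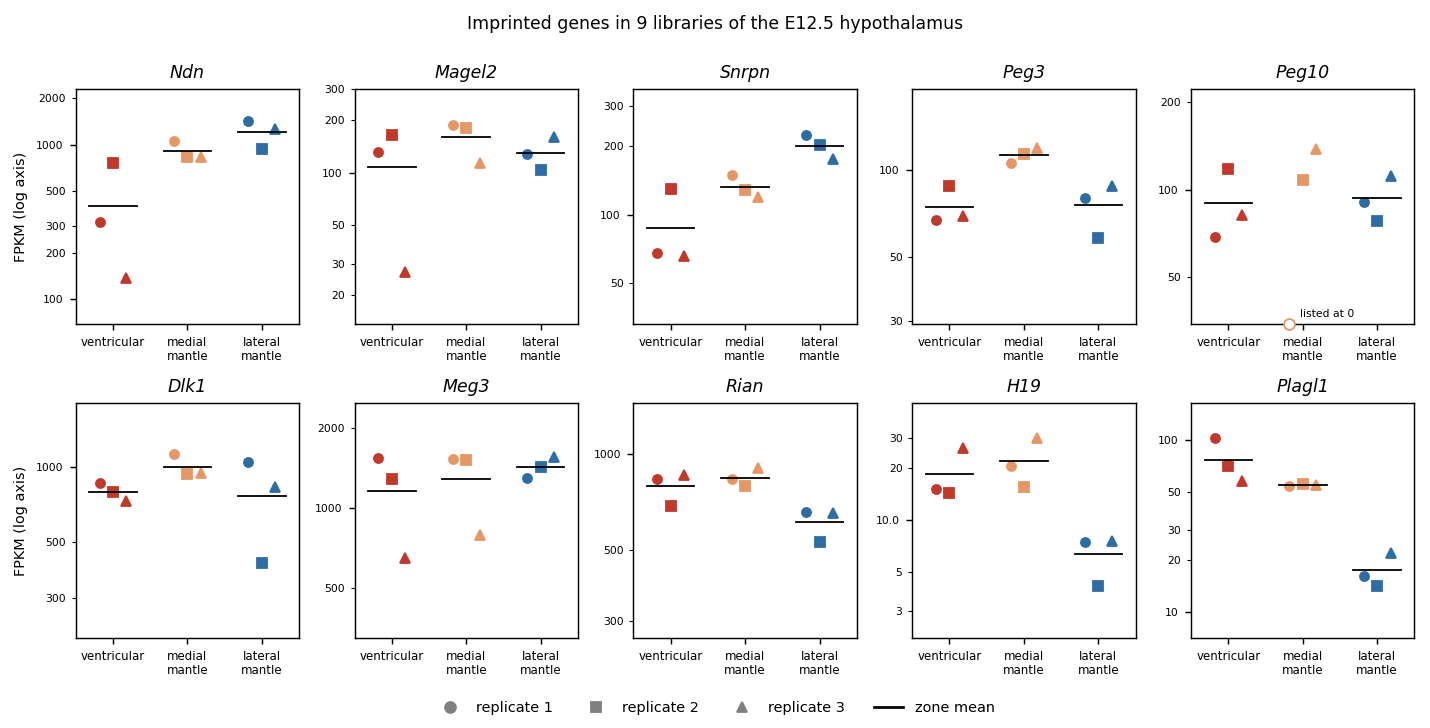
FPKM of each of the 10 genes (vertical axis, log scale) in the ventricular, medial mantle and lateral mantle zones, with a symbol per library and a line at the zone mean, not drawn where a library is listed at 0. Plagl1 and H19 sit lower in the 3 lateral libraries than in the other 6, Snrpn sits higher there, and the open circle marks Peg10 in medial mantle zone replicate 1, listed at 0.

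Differences are given on the log2(FPKM + 1) scale from limma, fitted to all tested genes, with p-values adjusted by the Benjamini-Hochberg method and a threshold of 0.05. Between the ventricular and lateral mantle zones 4 of the 10 genes passed, 2 higher and 2 lower, where 19.6% of all 14004 genes passed (10.7% higher and 8.93% lower). Medial against lateral, 2 passed, both higher, where 4.12% of all genes passed (3.58% higher and 0.543% lower). In that comparison 501 genes were higher and 76 lower as deposited, against 527 and 264 after quantile normalization, and the median difference of all genes moved by -0.11 with that scaling. The median difference of the 10 genes was -0.04 for ventricular minus lateral, beside 0.05 over all genes, and 0.37 for medial minus lateral, beside 0.10.

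In the comparison of the ventricular with the medial mantle zone none of the 10 passed in limma, and 0% of all genes did. At an unadjusted p under 0.05 there were 1661 genes, among them Ndn, Peg3 and Snrpn, each lower in the ventricular zone, and the smallest adjusted p over all genes was 0.0624. The median difference of the 10 genes was -0.28, beside -0.05 over all genes. The 3 comparisons share libraries, so they are not independent of each other.

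**Figure D2:**
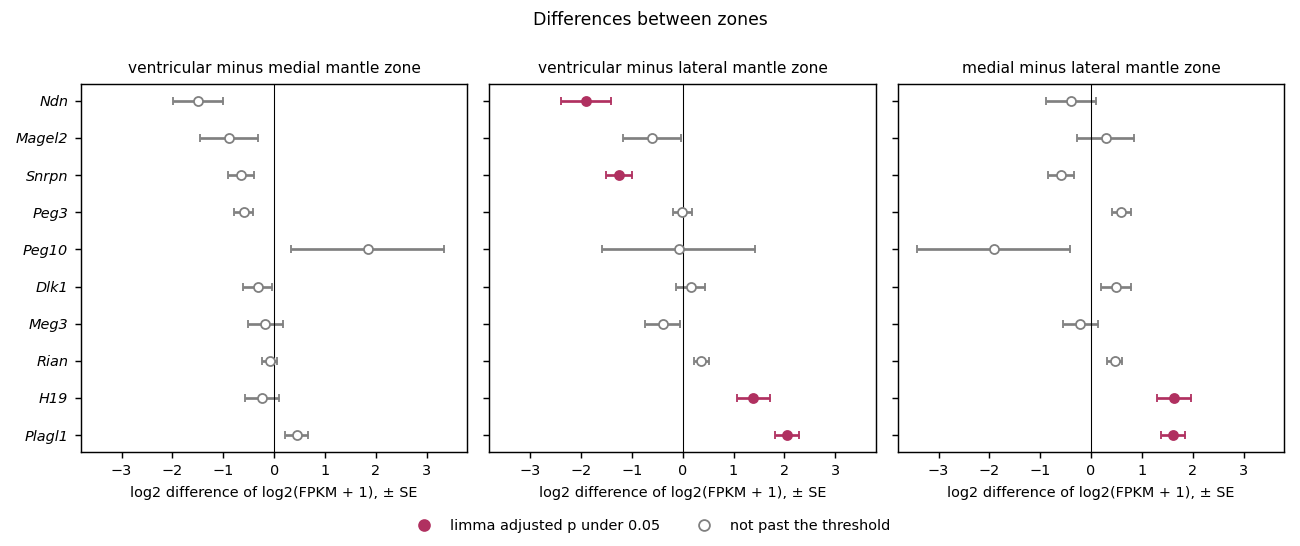
Difference between zones for each of the 10 genes on the log2(FPKM + 1) scale (horizontal axis), with bars of 1 SE from limma, in 3 panels of 1 comparison each. Filled points passed the threshold: Plagl1 and H19 in the middle and right panels, and Ndn and Snrpn, at -1.89 and -1.25, in the middle panel.

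Plagl1, also called Zac1, is a transcription factor known to slow the cell cycle. The gene spans 13060504 to 13131694 of chromosome 10 (GRCm38, plus strand). Plagl1 measured 102, 70.0 and 57.8 FPKM in ventricular libraries, 53.7, 55.5 and 54.8 FPKM in medial libraries, and 16.3, 14.2 and 22.1 FPKM in lateral libraries. The order of the zones was ventricular, medial, lateral, with no overlap between any pair. Plagl1 was higher in the ventricular zone than in the lateral one by 2.05 ± 0.23 (SE, n = 3 each, limma adjusted p = 0.000851). In the medial mantle zone it exceeded the lateral mantle zone by 1.61 ± 0.23 (limma adjusted p = 0.00596). Both calls held in all 19 alternative settings, at adjusted p up to 0.00745 and 0.0346. The difference between the ventricular and medial mantle zones was 0.44 ± 0.23 (limma adjusted p = 0.461), and 0.81 with array weights (limma adjusted p = 0.00827). The medial libraries differed little among themselves, at 54.7 ± 0.898 FPKM (SD, n = 3), whereas the ventricular libraries spread over 76.7 ± 22.9 FPKM.

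H19 spans 142575529 to 142578143 of chromosome 7, minus strand, next to the growth factor gene Igf2, with which it shares an imprinting control region. Its level was 15.1, 14.3 and 26.4 FPKM in ventricular libraries, 20.7, 15.6 and 29.8 FPKM in medial libraries, and 7.50, 4.17 and 7.55 FPKM in lateral libraries. The lateral libraries lay below the other 6, while the ventricular and medial libraries overlapped. H19 was higher in the ventricular zone than in the lateral one by 1.39 ± 0.33 (SE, n = 3 each, limma adjusted p = 0.0201), and higher in the medial than in the lateral mantle zone by 1.63 ± 0.33 (limma adjusted p = 0.0255). The highest libraries of the ventricular and the medial zone were the shallow ones, and with both left out the differences were 1.12 and 1.39 (limma adjusted p = 0.016 and 0.0145).

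Both H19 calls were lost in some alternative settings. The first was lost without lateral replicate 1 or 2 (limma adjusted p = 0.0532 and 0.0789). The second was lost without medial replicate 1 or 3 (0.0789 and 0.0973), without lateral replicate 1, 2 or 3 (0.0717, 0.116 and 0.0613) and with no filter on low values (0.0536). Igf2 showed another order of zones, with 4.76, 10.3 and 4.54 FPKM in ventricular libraries, 13.9, 12.4 and 29.3 FPKM in medial libraries and 16.3, 2.91 and 12.0 FPKM in lateral libraries. It passed in no comparison, with a ventricular minus lateral difference of -0.43 ± 0.56 (limma adjusted p = 0.609).

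Ndn encodes necdin, a protein of the MAGE family known to be made as neurons leave the cell cycle. The gene spans 62346569 to 62350262 of chromosome 7, plus strand. Its level was 315, 761 and 138 FPKM in ventricular libraries, 1053, 837 and 839 FPKM in medial libraries, and 1438, 937 and 1272 FPKM in lateral libraries. Each ventricular library lay below each mantle library, and the mantle zones overlapped. Ndn was lower in the ventricular zone than in the lateral one, by -1.89 ± 0.49 (SE, n = 3 each, limma adjusted p = 0.0268). The difference between the ventricular and medial mantle zones was -1.49 ± 0.49 (limma adjusted p = 0.393), and that between the medial and lateral mantle zones was -0.40 ± 0.49 (limma adjusted p = 0.691).

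The ventricular libraries were far apart for Ndn, at 405 ± 321 FPKM (SD, n = 3). Replicate 2 was the highest. The sum of the 13 neuronal markers was 829, 1734 and 669 FPKM in ventricular replicates 1, 2 and 3, and the progenitor sum was 1871, 1031 and 2313 FPKM. The part of cell content in the spread of Ndn was not tested. Without replicate 2 Ndn was lower than in the lateral mantle zone by -2.52 (limma adjusted p = 0.00105) and lower than in the medial mantle zone by -2.11 (limma adjusted p = 0.0151). Leaving out the highest library of the lower zone itself enlarges the difference, so these values add no support. The call against the lateral mantle zone was lost without ventricular replicate 1 (limma adjusted p = 0.0742), without lateral replicate 1, 2 or 3 (0.0962, 0.0635 and 0.0798), with no filter on low values (0.0638) and with only the compared zones in the fit (0.0645).

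Snrpn encodes SmN, a spliceosomal core protein of neurons, and lies on chromosome 7 from 59982495 to 60140219 on the minus strand. Its level was 68.0, 129.8 and 65.9 FPKM in ventricular libraries, 150.3, 128 and 119 FPKM in medial libraries, and 224, 203 and 176 FPKM in lateral libraries. Every lateral library was above the other 6, and ventricular replicate 2 reached the medial range. Snrpn was lower in the ventricular zone than in the lateral one, by -1.25 ± 0.25 (SE, n = 3 each, limma adjusted p = 0.0102), and this call held in all 19 alternative settings, at adjusted p up to 0.0491. The medial minus lateral difference was -0.59 ± 0.25 (limma adjusted p = 0.215), and it passed without ventricular replicate 2 (limma adjusted p = 0.0477), with only the compared zones in the fit (0.0285) and with array weights (0.0297). Against the medial mantle zone the ventricular zone differed by -0.66 ± 0.25 (limma adjusted p = 0.393), and by -0.97 without ventricular replicate 2 (limma adjusted p = 0.0173). Replicate 2 was the highest of its zone, so leaving it out itself enlarges this difference.

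Snurf, the upstream reading frame of the same transcripts, overlaps the span of Snrpn on the same strand, so the split of fragments between them is uncertain. Snurf was 70.1, 118 and 33.8 FPKM in ventricular libraries, 178, 74.8 and 136 FPKM in medial libraries and 199.9, 223 and 163 FPKM in lateral libraries. Ventricular minus lateral, it was lower by -1.55 ± 0.43 (limma adjusted p = 0.0339), a call that held in 12 of 20 alternative settings. It was lost without ventricular replicate 1 or 3 and without each lateral library, with no filter, with only the compared zones and without both shallow libraries, at adjusted p up to 0.112. The ratio of Snrpn to Snurf in FPKM was 0.969, 1.10 and 1.95 in the ventricular libraries, 0.846, 1.72 and 0.874 in the medial libraries and 1.12, 0.908 and 1.08 in the lateral libraries, with no order of the zones.

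Magel2, a MAGE family regulator of ubiquitin ligases in protein recycling, lies 26747 bp from Ndn on the same strand, on chromosome 7 from 62377010 to 62381640. Its level was 131, 166 and 27.1 FPKM in ventricular libraries, 188, 180.5 and 113 FPKM in medial libraries, and 127, 104 and 161 FPKM in lateral libraries. All zones overlapped, and the value of ventricular replicate 3 stood apart. The ventricular minus lateral difference was -0.60 ± 0.56 (limma adjusted p = 0.469) and turned to 0.20 without ventricular replicate 3. The other differences were -0.89 ± 0.56 between the ventricular and medial mantle zones (limma adjusted p = 0.521) and 0.28 ± 0.56 for medial minus lateral (limma adjusted p = 0.822).

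Ndn exceeded Magel2 by a ratio of 2.40, 4.60 and 5.08 in the ventricular libraries, 5.59, 4.64 and 7.40 in the medial libraries, and 11.3, 9.02 and 7.92 in the lateral libraries. The lateral ratios lay above the other 6. The ratio is a description and was not tested.

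Peg3 encodes a large zinc finger protein known from maternal behaviour and energy balance in mice, on chromosome 7 from 6703892 to 6730431. Its level was 67.2, 87.9 and 69.0 FPKM in ventricular libraries, 106, 114 and 119 FPKM in medial libraries, and 80.3, 58.3 and 88.2 FPKM in lateral libraries. The medial libraries lay above the other 6. The differences were -0.60 ± 0.18 between the ventricular and medial mantle zones (limma adjusted p = 0.393) and 0.59 ± 0.18 for medial minus lateral (limma adjusted p = 0.11). Of the alternative settings, array weights alone took these past the threshold (0.0104 and 0.0162). The ventricular and lateral mantle zones differed by -0.01 ± 0.18 (limma adjusted p = 0.985). Usp29, which starts 146 bp away on the opposite strand, was 5.16, 12.8 and 1.47 FPKM in ventricular libraries, 16.8, 15.2 and 10.7 FPKM in medial libraries and 20.4, 13.7 and 20.3 FPKM in lateral libraries. Its ventricular minus lateral difference was -1.67 ± 0.52 (limma adjusted p = 0.0514).

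Peg10 encodes a protein derived from a retrotransposon and lies on chromosome 6 from 4747306 to 4760517. Peg10 measured 69.1, 118 and 82.0 FPKM in ventricular libraries, and 91.0, 77.8 and 111 FPKM in lateral libraries. In the medial libraries it was 108 and 138 FPKM in replicates 2 and 3 and was listed at 0 in replicate 1. No other gene of the table was at 0 in that library while holding at least 10 FPKM in each of the other 8. The same pattern occurred for 27 genes in ventricular replicate 3, for 15 in medial replicate 3 and for none in the remaining 6 libraries.

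Genes next to Peg10 were present in the library with the 0. In medial replicates 1, 2 and 3, Sgce, which starts 98 bp from Peg10 on the opposite strand, was 21.6, 13.5 and 17.9 FPKM. Casd1 was 14.9, 16.3 and 22.9 FPKM and Ppp1r9a was 16.2, 13.7 and 18.8 FPKM there. Of 8 genes around Peg10 5 were tested, and Pon2 alone passed, higher than in the lateral mantle zone by 2.55 in the ventricular zone and 2.07 in the medial mantle zone (limma adjusted p = 0.00168 and 0.00948). Of all genes 10.7% and 3.58% were higher in these comparisons. The second Pon2 call was lost without lateral replicate 2 (limma adjusted p = 0.0532). A 0 in a table without counts can be a failed estimate, and which it is here was not tested. With the 0 as deposited, Peg10 differed by 1.84 ± 1.51 between the ventricular and medial mantle zones (limma adjusted p = 0.618) and by -1.92 ± 1.51 for medial minus lateral (limma adjusted p = 0.512). With the 0 taken as missing, a choice made after seeing the values, these differences had the opposite sign, at -0.48 (limma adjusted p = 0.473) and 0.40 (limma adjusted p = 0.422). Between the ventricular and lateral mantle zones the libraries overlapped, with a difference of -0.08 ± 1.51 (limma adjusted p = 0.976).

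**Figure D3:**
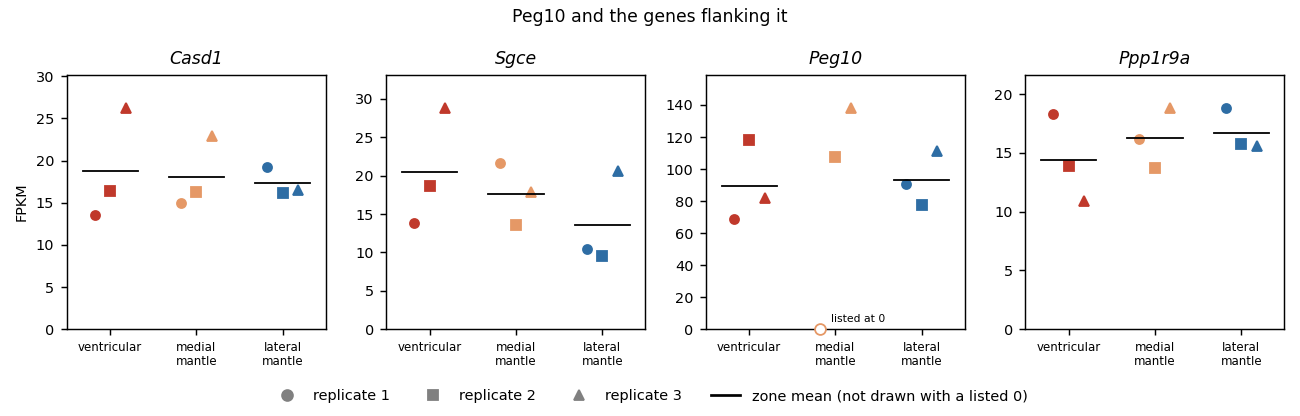
FPKM (vertical axis from 0) of Peg10 and of Casd1, Sgce and Ppp1r9a, which flank it, in the 3 zones, with a symbol per library and a line at the zone mean. The open circle is Peg10 in medial mantle zone replicate 1, listed at 0, where Sgce was 21.6 FPKM.

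Dlk1, Meg3 and Rian belong to a cluster on chromosome 12, all on the plus strand. Dlk1 encodes a membrane protein related to Notch ligands, found from 109452823 to 109463336. Its level was 861, 794 and 726 FPKM in ventricular libraries, 1119.6, 933 and 940.2 FPKM in medial libraries, and 1042, 415 and 828 FPKM in lateral libraries. The ventricular libraries lay below the medial ones, and the lateral libraries overlapped both. The differences were -0.33 ± 0.29 between the ventricular and medial mantle zones (limma adjusted p = 0.648), 0.16 ± 0.29 between the ventricular and lateral mantle zones (0.726) and 0.48 ± 0.29 for medial minus lateral (0.383). Lateral replicate 2 held the lowest value, and without it the second of these was -0.23.

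Meg3, a noncoding RNA of the maternal allele from 109541001 to 109571726, was 1539.5, 1294 and 650.0 FPKM in ventricular libraries, 1537, 1522 and 792 FPKM in medial libraries, and 1306, 1433 and 1557 FPKM in lateral libraries. The low values, 650.0 and 792 FPKM, were those of the shallow libraries, and the other 7 lay between 1294 and 1557 FPKM. The part of depth in this was not tested. No difference passed: it was -0.17 ± 0.35 between the ventricular and medial mantle zones (limma adjusted p = 0.856), -0.39 ± 0.35 between the ventricular and lateral mantle zones (0.446) and -0.22 ± 0.35 for medial minus lateral (0.768).

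Rian, a host of small nucleolar RNAs and microRNAs from 109603940 to 109661716, begins 32213 bp beyond Meg3. Its level was 837, 686 and 859.8 FPKM in ventricular libraries, 835, 791 and 902 FPKM in medial libraries, and 659, 530.2 and 653 FPKM in lateral libraries. The lateral libraries lay below the other 6. Neither the ventricular minus lateral difference of 0.37 ± 0.15 (limma adjusted p = 0.119) nor the medial minus lateral difference of 0.46 ± 0.15 (limma adjusted p = 0.134) passed. The first passed without ventricular replicate 2 (limma adjusted p = 0.0456) and with array weights (0.0128). That library was the lowest of its zone for Rian, so leaving it out itself enlarges this difference. The second passed with only the compared zones in the fit (limma adjusted p = 0.0484) and with array weights (0.0191). Rian was not low in the shallow libraries, so the ratio of Meg3 to Rian was 0.756 and 0.879 there and 1.84 to 2.70 in the other 7. Mirg, a further noncoding RNA of the cluster, was 33.3, 33.4 and 11.1 FPKM in ventricular libraries, 32.1, 34.1 and 42.4 FPKM in medial libraries and 18.3, 17.2 and 18.998 FPKM in lateral libraries, and it passed in no comparison.

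Counted by overlap rather than by the test, 5 of the 10 genes had no overlap between the ventricular and lateral libraries (Plagl1, H19 and Rian higher, Ndn and Snrpn lower), where 45.1% of all genes did so, 25.2% higher and 19.9% lower. Between the medial and lateral libraries 5 did (Plagl1, H19, Peg3 and Rian higher, Snrpn lower), beside 40.4% of all genes, 25.7% higher and 14.8% lower. Between the ventricular and medial libraries 4 did (Plagl1 higher, Ndn, Peg3 and Dlk1 lower), beside 14.7% of all genes, 5.36% higher and 9.3% lower.

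Marker genes of progenitors and of neurons were read beside these genes. The sum of the 13 progenitor markers was 1031 to 2313 FPKM in ventricular libraries, 995 to 1162 FPKM in medial libraries and 89.5 to 127 FPKM in lateral libraries, the same order of zones as Plagl1. The sum of the 13 neuronal markers was 669 to 1734 FPKM in ventricular libraries, 1681 to 1969.7 FPKM in medial libraries and 2363 to 2792 FPKM in lateral libraries, the same order of zones as Ndn and Snrpn. Medial against lateral, 1 of the 13 passed, Rbfox3, lower, where 0.543% of all genes were. That call held in 11 of 20 alternative settings. Rbfox3 departed from the order of the sum, at 27.2 to 33.9 FPKM in ventricular and 16.8 to 23.1 FPKM in medial libraries. In bulk tissue, fewer cells of a type and less RNA per cell cannot be told apart. Within the ventricular zone H19 ordered the 3 libraries as the progenitor sum did (replicate 3, 1, 2 from high to low), and Ndn and Snrpn ordered them as the neuronal sum did (replicate 2, 1, 3). Plagl1, highest in ventricular replicate 1 and lowest in ventricular replicate 3, had another order. The likeness did not hold throughout the mantle zones. H19 and Snrpn ordered the medial libraries unlike the progenitor and the neuronal sum, and Ndn ordered the lateral libraries unlike the neuronal sum. Ndn in the medial libraries, and H19 and Snrpn in the lateral ones, had the order of their sum. The part of cell types in these results was not tested.

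Blood and vessel markers were also read, since H19 is abundant in mesoderm. Of 10 erythroid markers 7 were tested, and 5 were higher in the ventricular and 5 in the medial than in the lateral mantle zone. Of all genes 10.7% and 3.58% were. Slc4a1, among these 5 in both comparisons, stayed below 1 FPKM in each lateral library. It passed the filter only through the other zones, so its calls are no support. The medial count became 1 without medial replicate 2, and 3 without medial replicate 1 or 3 or lateral replicate 2. The erythroid sum was 1895 to 2050.3 FPKM in ventricular libraries, 1345 to 2453 FPKM in medial libraries and 225 to 542 FPKM in lateral libraries. Gata1, which was not tested, reached at most 0.559 FPKM and was listed at 0 in 6 of the 9 libraries, the lateral ones among them. Of 10 endothelial markers none passed in limma, with sums of 10.9 to 68.9, 30.1 to 83.6 and 20.2 to 57.4 FPKM in the ventricular, medial and lateral libraries. At an unadjusted p under 0.05, 1 endothelial marker differed between the ventricular and medial mantle zones and 1 medial against lateral. Of 10 meningeal and mesenchymal markers, 4 were tested, and Foxd1 alone passed, higher in the ventricular and in the medial zone than in the lateral one. Foxd1, which hypothalamic progenitors also express, was 9.12 to 28.1, 21.5 to 26.5 and 0.732 to 1.93 FPKM in the ventricular, medial and lateral libraries, of a sum over the list of 15.0 to 28.7, 26.5 to 31.9 and 3.13 to 8.25 FPKM. Of the other 9, Col1a2, Col3a1, Col1a1, Foxc1 and Prrx2 reached at most 5.10, 2.29, 2.104, 1.20 and 1.146 FPKM in any library, and Dcn, Lum, Twist1 and Aldh1a2 at most 0.223 FPKM. Of 7 pericyte markers 6 were tested and none passed, with 1 at an unadjusted p under 0.05 in each comparison of the ventricular zone. Of 8 microglial markers 2 were lower in the ventricular zone than in the lateral one, where 8.93% of all genes were. The sums over the 8 were 12.2 to 23.5, 12.6 to 27.2 and 35.9 to 51.2 FPKM in the ventricular, medial and lateral libraries. Both calls were lost without ventricular replicate 1 or any lateral library, and the count was 1 without medial replicate 1. Of 6 choroid plexus markers 3 were tested, Otx2, Folr1 and Msx1, and each was higher in the ventricular zone than in the lateral one. Of all genes 10.7% were. Folr1 and Msx1 reached 1 FPKM in ventricular libraries alone. Otx2 stayed below 1 FPKM in each lateral library. All 3 passed the filter only by being high outside the lateral zone, so their calls are no support. The untested Ttr, Kl and Clic6 reached at most 0.308, 0.704 and 0.150 FPKM, and Clic6 was listed at 0 in all ventricular libraries. The sum over the 6 was 15.9 to 77.3, 0.704 to 5.76 and 0.279 to 1.36 FPKM in the ventricular, medial and lateral libraries. The 3 choroid plexus calls became 1 without lateral replicate 1 or 3. The part of red blood cells in the H19 result was not tested.

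**Figure D4:**
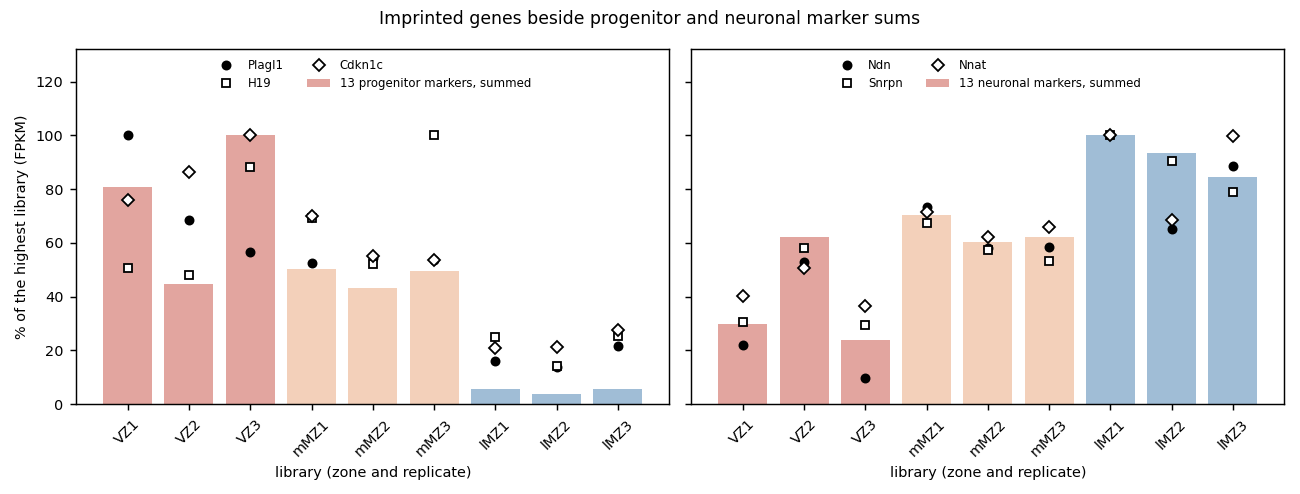
FPKM of 3 imprinted genes in each panel (symbols) and of summed marker genes (bars), as a percentage of the highest library (vertical axis from 0), for the 9 libraries (horizontal axis; VZ, ventricular zone; mMZ, medial mantle zone; lMZ, lateral mantle zone). Plagl1, H19 and Cdkn1c are low where the progenitor sum is low, in the lateral libraries, and Ndn, Snrpn and Nnat are lower in ventricular replicates 1 and 3 than in replicate 2, as is the neuronal sum.

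Other imprinted genes were read from a list of 54, of which 50 were in the table and 40 were tested. In the ventricular against the lateral zone 6 were higher and 7 lower, and 27 did not pass. Of all genes 10.7% were higher and 8.93% lower. The median difference was -0.25, beside 0.05 over all genes. Medial against lateral, 4 were higher and 1 lower, where 3.58% and 0.543% of all genes were. The median there was 0.13, beside 0.10 over all genes. In the ventricular against the medial zone 0 passed in limma, and the median was -0.27, beside -0.05 over all genes. In that comparison 10 had an unadjusted p under 0.05, beside 1661 of all 14004 genes. The 7 lower genes became 3 without ventricular replicate 1, 11 without ventricular replicate 2, and 2, 4 and 2 without lateral replicate 1, 2 or 3. The medial minus lateral count became 8 higher and 1 lower with only the compared zones in the fit, without both shallow libraries or without ventricular replicate 3. Without ventricular replicate 2, 3 genes were lower in the ventricular than in the medial zone.

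Of the genes higher in the ventricular zone, 4 differed most. Peg12, a relative of the Wnt regulator Frat in the Prader-Willi region, 111608 bp from Ndn, was 29.5 ± 17.4 FPKM in the ventricular zone, 16.2 ± 1.65 FPKM in the medial and 0.910 ± 0.299 FPKM in the lateral mantle zone (SD, n = 3 each). Its ventricular minus lateral difference was 3.86 ± 0.36 (limma adjusted p = 0.00046), opposite in sign to that of Ndn. Mest, a hydrolase-like gene, was 359 ± 43.5 FPKM in the ventricular zone, 248 ± 23.6 FPKM in the medial and 63.9 ± 22.3 FPKM in the lateral mantle zone. Grb10, an adaptor that dampens insulin receptor signalling, was 86.5 ± 48.0, 56.2 ± 10.6 and 12.99 ± 4.14 FPKM in the ventricular, medial and lateral zones. Cdkn1c, the cyclin-dependent kinase inhibitor p57, was 260.5 ± 35.8, 177 ± 26.8 and 69.1 ± 11.6 FPKM there.

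These 4 genes passed in both comparisons with the lateral mantle zone. The ventricular minus lateral calls of all 4, and the medial minus lateral calls of Peg12, Mest and Cdkn1c, held in all 20 alternative settings. The medial minus lateral call of Grb10 held in 17 and was lost without medial replicate 3 or lateral replicate 2 or 3, at adjusted p up to 0.0715. Copg2 and Mcts2 were the other higher genes, at 1.30 ± 0.24 and 0.70 ± 0.20 (ventricular minus lateral, limma adjusted p = 0.00772 and 0.0363). Copg2 overlaps Mest on the opposite strand and Mcts2 overlaps H13 on the same strand, and no source used here says whether counting used strand, so both are uncertain. The Mcts2 call held in 9 of 20 alternative settings and was lost at adjusted p up to 0.13, also without each library other than ventricular replicate 2 and medial replicate 3.

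The lower genes included Nnat, a membrane proteolipid of developing brain and the most abundant gene of the list. It was 3307 ± 564 FPKM in the ventricular zone, 5176 ± 369 FPKM in the medial and 6967 ± 1409 FPKM in the lateral mantle zone (SD, n = 3 each), and its ventricular minus lateral difference was -1.07 ± 0.21 (limma adjusted p = 0.0105). That call held in 16 of 20 alternative settings and was lost with quantile normalization, with no filter on low values and without lateral replicate 1 or 3, at adjusted p up to 0.986. Blcap, which overlaps Nnat on the opposite strand, was lower by -0.57 ± 0.15 (limma adjusted p = 0.0299), a call that held in 11 settings. It was lost without ventricular replicate 1, medial replicate 1 or 2 or any lateral library, at adjusted p up to 0.112.

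Begain, a synapse-associated gene at the far end of the Dlk1 cluster, was 18.98 ± 9.06 FPKM in the ventricular zone, 22.4 ± 8.42 FPKM in the medial and 61.1 ± 4.45 FPKM in the lateral mantle zone. It was lower in both zones than in the lateral mantle zone, by -1.72 ± 0.33 in the ventricular zone (limma adjusted p = 0.00893) and by -1.47 ± 0.33 in the medial mantle zone (limma adjusted p = 0.0402). The first of these calls held in all 20 settings and the second in 11, being lost without ventricular replicate 1, medial replicate 2 or 3 or any lateral library, at adjusted p up to 0.156. The remaining lower genes were Nap1l5 (-1.50 ± 0.29), Zrsr1 (-1.21 ± 0.29, overlapping Commd1 on the opposite strand), Osbpl5 (-0.86 ± 0.22) and Snurf. The Nap1l5 call held in all 20 settings. That of Osbpl5 was lost without ventricular replicate 1 or lateral replicate 1 or 3, and that of Zrsr1 without ventricular replicate 1 or any lateral library, at adjusted p up to 0.1 and 0.09. Among genes that did not pass, Gnas was 535 ± 137, 495 ± 178 and 590.2 ± 65.8 FPKM in the ventricular, medial and lateral zones.

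**Figure D5:**
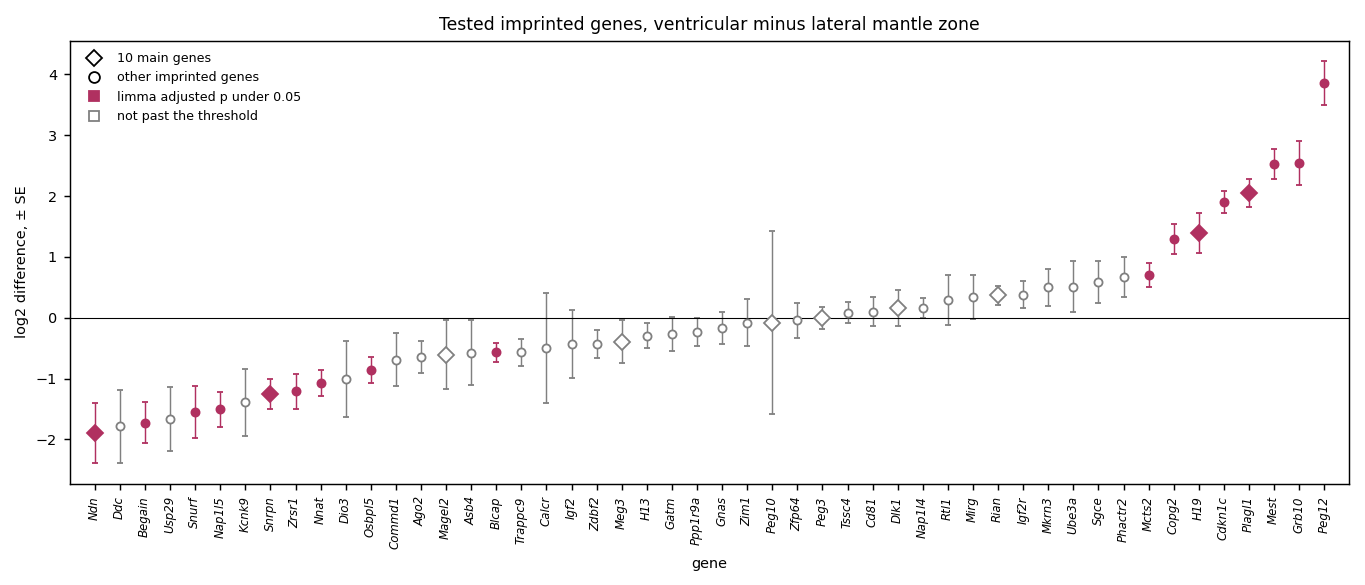
Ventricular minus lateral difference on the log2(FPKM + 1) scale (vertical axis), with bars of 1 SE, for the 10 genes (diamonds) and the 40 other tested imprinted genes (circles), ordered by size. Filled symbols passed the threshold, from Ndn at -1.89 to Peg12 at 3.86.

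Of 12 factors that set or keep imprints, 10 were tested. Of these 2 were higher in the ventricular and 1 in the medial than in the lateral zone, where 10.7% and 3.58% of all genes were. The median ventricular minus lateral difference was 0.23 and the median medial minus lateral difference 0.31, beside 0.05 and 0.10 over all genes. Uhrf1, which brings the maintenance methyltransferase to newly copied DNA, was 48.5 ± 32.8 FPKM in the ventricular zone, 27.2 ± 16.0 FPKM in the medial and 2.36 ± 0.504 FPKM in the lateral mantle zone (SD, n = 3 each). It was higher than in the lateral mantle zone in both, by 3.69 ± 0.48 (limma adjusted p = 0.00166) and 2.93 ± 0.48 (limma adjusted p = 0.00998). Ctcf, the insulator protein of imprinting control regions, was higher in the ventricular zone than in the lateral one by 0.70 ± 0.21 (limma adjusted p = 0.0414), a call that held in 11 of 20 settings and was lost without ventricular replicate 3, medial replicate 1 or 2 or any lateral library, at adjusted p up to 0.132. The other 8 did not pass, among them Trim28 at 276 ± 5.79, 266 ± 22.3 and 227 ± 8.41 FPKM and the methyltransferase Dnmt1 at 40.4 ± 5.19, 40.9 ± 3.33 and 35.1 ± 1.74 FPKM in the ventricular, medial and lateral zones. Of 13 genes tied to Plagl1 in other mouse studies, 12 were tested. Ventricular against lateral, Cdkn1c, Grb10, H19 and Mest were higher and Ndn lower, and these 4 were also higher in the medial than in the lateral zone. Of all genes 10.7% were higher and 8.93% lower in the first comparison, and 3.58% higher in the second. The median difference of the 12 was 0.27 in the first comparison, beside 0.05 over all genes, and 0.54 in the second, beside 0.10. The 4 higher genes of the second comparison became 2 without medial replicate 3 or lateral replicate 2 or 3. All 5 genes also belong to the lists above.

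For each of the 4 genes that passed, the 3 genes of most similar pattern were taken, by the root mean square difference of log2(FPKM + 1) over the 9 libraries after centring, among tested genes with a mean of at least 5 FPKM. For Snrpn these were Vopp1, Nsg1 and Tubb2a, at 0.0587, 0.0877 and 0.0916, where the SD of Snrpn itself was 0.618. Those for Ndn were Arxes1, Usp29 and Pnmal2, at 0.146, 0.156 and 0.165 against an SD of 1.08, and Usp29 is itself an imprinted gene. Plagl1 was most like Palld, Spice1 and Efs, at 0.192, 0.248 and 0.262 against an SD of 0.970. H19 was most like Rhoc, Rps27l and Clic4, at 0.194, 0.216 and 0.222 against an SD of 0.853.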

How the data were processed

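The authors deposited FPKM values, 1 per gene and library, for 9 libraries. Per the submitters' processing notes, Bowtie2 2.1.0 and the mm10 build were used. The program that estimated FPKM, its annotation and its use of strand are not given in the sources used here. From 38370 lines, 42 exact repeats and 133 further lines of an already listed symbol were dropped in favour of the line with the highest mean. Depth was estimated from the steps of low values and is relative.

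No count model suits FPKM. Genes reaching 1 FPKM in 3 or more libraries entered the test as log2(FPKM + 1), which understates changes of low values. A single limma model (limma 3.58.1, R 4.3.3) over the 9 libraries gave each zone its own mean, with variances moderated along a trend in level. Two-sided p-values were corrected after Benjamini and Hochberg over 14004 genes. The fit was tested on simulated data, ventricular against lateral, with 200 changed genes in each of 10 runs. It found 20.2% of changes of 1 and 59.1% of changes of 2 on the log2 scale, and 4.93% of calls were false. A gene that did not pass may therefore still differ. The simulation gave each gene the same spread in all libraries, which does not hold for the shallow ones. Python 3.11.15 with pandas 2.3.3, numpy 2.4.6 and matplotlib 3.10.9 made the tables and figures.

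The 10 genes and all lists were chosen with earlier results of these data known. By rule, the 10 genes were given library by library. From each other list the rule took at most 4 genes past the threshold, the largest differences first, and at most 2 others, the highest levels first, with more where they adjoin or overlap a member or were read beside one; some further genes were named after their values were seen. Gene spans are from GENCODE M21 on GRCm38, the assembly called mm10, and sequences from RefSeq on GRCm38.p6. Protein sequences were not used here. A marker list is not reported here. Of the 54 other imprinted genes, Kcnq1ot1, Peg13, Snhg14 and Zfp264 were not analysed here. Alternatives covered the pseudocount (0.1), the filter, scaling, array weights, the trend, the zones fitted, a replicate block, the shallow libraries and each single library. Counts out of 20 settings also include the 0 of Peg10 taken as missing. That setting changed the values of no other gene, so it does not test their calls.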

Additional observations from a re-analysis of the deposited data

How the results depend on the processing

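Depth limits the 2 shallow libraries, and 3 libraries per zone limit all tests. Between the ventricular and medial mantle zones, the count of genes past the threshold, 0 as reported, was 4 with a mean of at least 5 FPKM, 9 with quantile normalization and 2761 with array weights, with 4 of the 10 imprinted genes, and it was 0 to 571 (0 to 2 of the 10) when single libraries were left out, 571 without ventricular replicate 2. In the ventricular against the lateral zone, 2750 genes became 6800 with array weights, 1684 with only the compared zones, and 959 to 3958 (2 to 5 of the 10) without single libraries: 1199 without ventricular replicate 1, and 959, 1021 and 1250 without lateral replicate 1, 2 or 3. In the medial against the lateral zone, 577 genes became 3700 with array weights (5 of the 10), 2027 with only the compared zones (4 of the 10) and 1666 without both shallow libraries, and with no filter 1 of the 10 passed. Without single libraries it ran from 207 to 1760 (1 to 3 of the 10): 889 and 1760 without ventricular replicate 2 or 3, 293, 222 and 294 without medial replicate 1, 2 or 3, and 240, 207 and 295 without lateral replicate 1, 2 or 3. The fit of array weights stopped before reaching its tolerance. The cause of these changes was not tested. Differences that passed no threshold turned sign as follows. For ventricular minus medial, Rian was 0.0062 with array weights and -0.15 to 0.011 without single libraries, Meg3 -0.49 to 0.20 and Peg10 -0.48 to 3.08 without single libraries, and Peg10 -0.48 with its 0 as missing. For ventricular minus lateral, Meg3 was 0.054 with array weights. Without both shallow libraries Magel2 was 0.20 and Peg3 0.045. Without single libraries Magel2 was -1.09 to 0.20, Peg3 -0.18 to 0.11, Peg10 -0.29 to 0.089 and Dlk1 -0.23 to 0.43. For medial minus lateral, Meg3 was 0.11 with quantile normalization, 0.063 with array weights, 0.10 without both shallow libraries and -0.38 to 0.10 without single libraries, and Peg10 was 0.40 with its 0 as missing and -3.16 to 0.40 without single libraries. Trimmed mean scaling moved the median medial minus lateral difference by -0.12. Same-numbered libraries correlated by -0.10 to 0.25 in their deviations from zone means, and in no comparison did all 3 pairs exceed 0.1, so the numbers were not taken as pairs. As a hint from the data, 11 of 18 checks found the best correlation with the own number, among them 6 of 6 between the mantle zones. With a replicate block, 0, 2901 and 703 genes passed in the order above, and 0, 4 and 2 of the 10.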
